A study of Mus musculus with 44 samples.

Results

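The comparison described here set 5 libraries of miR-150 knockout CD4 T cells grown under regulatory T cell conditions (Treg KO) against 5 libraries of miR-150 knockout CD4 T cells grown under T helper 1 conditions (Th1 KO), 10 of the 44 libraries of the series. The libraries were taken by their titles, 1 of which is typed with a zero in place of the letter O. The starting cells of both groups were naive CD4 T cells, sorted out of the spleen of mice of strain C57BL/6NTac that lack miR-150. They were plated at 150000 cells per well on plates coated with antibody to CD3, with soluble antibody to CD28, and kept for 3 days. Treg KO cultures received TGF-b1 and anti-IFN-g, and Th1 KO cultures received IL-12 and anti-IL4. The labels do not say what the library numbers 1 to 5 mark or whether each is a separate animal. The p-values therefore measure the spread between libraries, which was estimated within the groups of all 44 libraries fitted together. Where they help, the same contrast in wild type cells (Treg WT and Th1 WT) and in miR-150 knock-in cells (Treg KI and Th1 KI) is given, each with 5 libraries of the same strain and culture.

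Activated CD4 T cells take on different fates according to the cytokines around them. IL-12 acts through STAT4 and, with IFN-gamma, raises T-bet, the factor that drives IFN-gamma production in Th1 cells, which defend against intracellular microbes. TGF-beta acts through a pair of receptor serine kinases and SMAD proteins and, with IL-2, turns on Foxp3, the factor that holds the suppressive programme of regulatory T cells. miR-150 is a microRNA of mature lymphocytes, best known for repressing Myb. The mature microRNA was not measured here, since the libraries hold polyadenylated RNA.

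The 10 libraries held between 76796218 and 118166689 counts on genes, and 21873 genes of the 55416 listed passed the filter on low counts. Levels are CPM, a gene's count over the library's effective total, multiplied by 1000000. The effective total is the sum over the genes that passed the filter, scaled by edgeR's TMM normalization factor. A gene is said to have risen or fallen in Treg KO against Th1 KO where edgeR's quasi-likelihood test gave an adjusted p under 0.05. Genes that mark T cells were abundant in every library, with a sum over 8 markers of 2144.7 to 3002.1 CPM in Treg KO and 1755.1 to 2138.3 CPM in Th1 KO. The transcript listed as Mir150 had no count in any of the 10 libraries, but it also had 2 counts in all in Treg WT and 1 in Th1 WT, so it does not check the genotype. Library 2 of each culture stood apart from the others. On the second principal component, which took 11.2% of the variance of log2(CPM + 1), Treg KO 2 lay at 25.5 and Th1 KO 2 at 32.2, against -19.7 to 3.1 for the other libraries. The 8 markers of CD8 T and NK cells summed to 275.4 CPM in Treg KO 2 and to 44.1 to 58.5 CPM in the other Treg KO libraries, and to 104.3 to 210.04 CPM in Th1 KO. Markers of B cells other than Ighm summed to 19.4 to 158.3 CPM in Treg KO and to 19.5 to 252.5 CPM in Th1 KO, highest in the libraries numbered 2 and 5. Myeloid markers were scarce, at 10.5 to 29.1 CPM in Treg KO and 3.4 to 8.87 CPM in Th1 KO, where 1 of the 13 markers, Siglech, was at 0. Of 11 myeloid markers tested, 6 rose and 0 fell. With 1 library left out, 3 were higher without Th1 KO 1 or 4. The part of these other cells in the results below was not tested. In bulk RNA, fewer cells of a type and less RNA per cell cannot be told apart.

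The culture condition was the main source of difference. The first principal component took 70.9% of the variance and put Treg KO 1 to 5 at 49.7, 11.2, 51.5, 38.4 and 47.8, against -42.8 to -35.6 for Th1 KO. In Treg KO 3273 genes rose and 3286 fell, which is 14.96% and 15.02% of the genes tested, with a median log2 fold change over all genes of 0. Without the libraries numbered KO 2, WT 4 and KI 3, 3554 rose and 4077 fell of 21968 genes tested. Those libraries were chosen for their Cd8a averaged over cultures (in Th1 KO alone library 3 was higher than 2). This is the fit named below as without both libraries numbered 2. With library numbers blocked 3991 rose and 4036 fell of 21873. Both fits called more genes than the main fit, so their counts per list below are to be read against these totals. For 4861 genes, 22.22% of those tested, the 5 values of Treg KO and the 5 of Th1 KO did not overlap. The plot of fold change against level shows all genes tested.

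**Figure D1:**
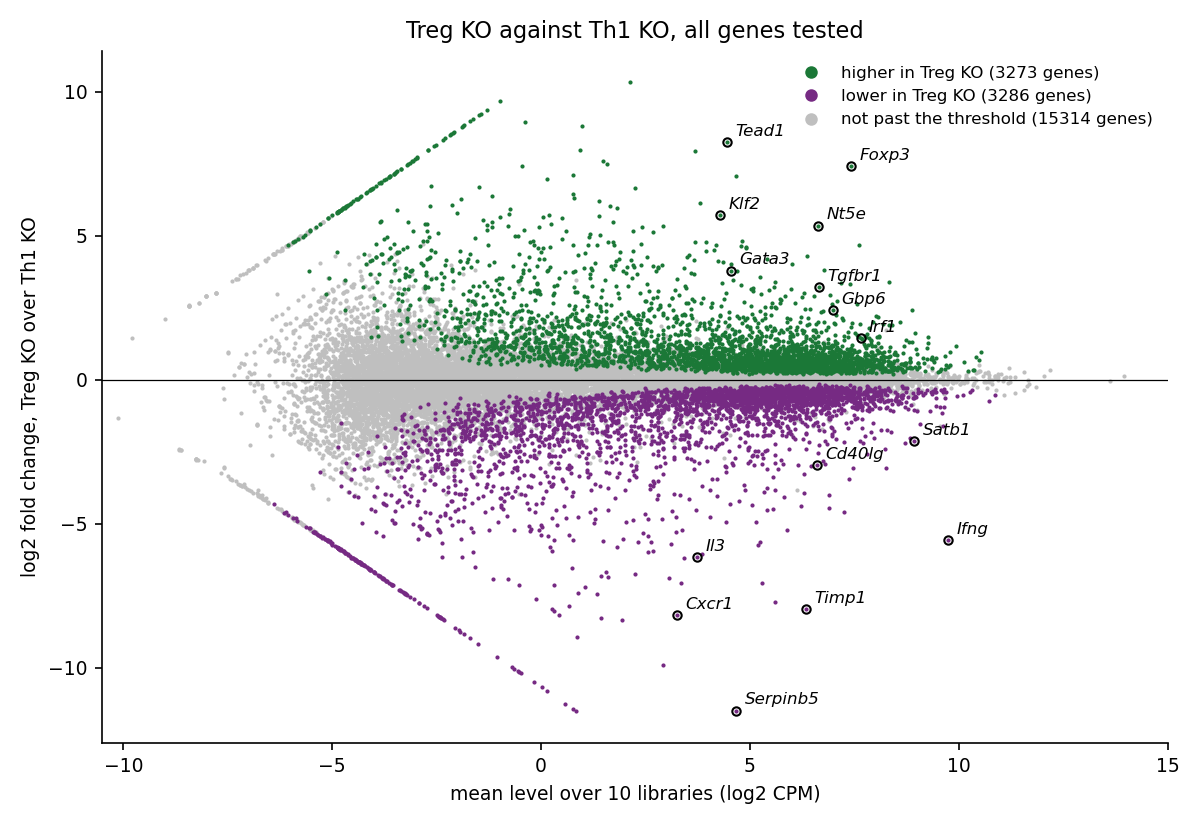
Log2 fold change of Treg KO over Th1 KO (vertical axis) against the mean level over the 10 libraries in log2 CPM (horizontal axis), 1 point per gene tested; green points rose, purple points fell, grey points did not pass, and 27 genes without a count in the 10 libraries are not drawn. Foxp3 and Nt5e lie at the top of the well measured genes and Serpinb5, Timp1 and Ifng at the bottom.

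Foxp3, the lineage factor of regulatory T cells (chrX:7573644-7595245, GENCODE annotation of GRCm38, as for all gene positions here), was among the genes that rose most. It stood at 419.3, 77.4, 375.8, 411.3 and 431.2 CPM in Treg KO 1 to 5, against 0.978, 2.09, 4.35, 1.32 and 1.19 CPM in Th1 KO 1 to 5. No library overlapped between the cultures, and Treg KO 2 was the lowest of the Treg KO libraries (log2 fold change 7.43 ± 0.68, adjusted p = 3.03e-10). Without both libraries numbered 2 the log2 fold change was 7.66 ± 0.54 (adjusted p = 2.61e-11). Of 24 Treg genes listed 12 rose, 3 fell and 9 did not pass, with a median log2 fold change of 1.01. By comparison, 13 were higher and 8 lower with library numbers blocked and 13 were higher and 7 lower without both libraries numbered 2 (median 1.53). When single libraries were left out, 7 were lower without Treg KO 2. Nt5e, the CD73 enzyme that makes adenosine from AMP (chr9:88327197-88372092), stood at 231.7, 99.8, 228.8, 166.8 and 247.5 CPM in Treg KO, against 1.6, 7.08, 9.18, 2.75 and 3.19 CPM in Th1 KO (log2 fold change 5.35 ± 0.62, adjusted p = 3.58e-08). Its lowest Treg KO library was again number 2 and was still above every Th1 KO library. Lrrc32, or GARP, which holds latent TGF-beta on the cell surface, stood at 42.3, 23.7, 31.5, 25.3 and 47.4 CPM in Treg KO, against 1.1, 3.35, 1.81, 0.586 and 0.684 CPM in Th1 KO (log2 fold change 4.50 ± 0.52, adjusted p = 3.43e-08). Itgae, the CD103 integrin subunit that binds E-cadherin, stood at 43.8, 18, 34, 7.93 and 17.1 CPM in Treg KO, against 0.783, 0.786, 3.54, 0.8 and 0.783 CPM in Th1 KO (log2 fold change 4.17 ± 0.57, adjusted p = 7.16e-07). The groups did not overlap for either gene. Gpr83, an orphan receptor enriched in regulatory T cells, rose by 4.62 ± 0.61 on the log2 scale, and Ikzf2, which encodes the Treg factor Helios, by 1.85 ± 0.40, with adjusted p of 3.78e-07 and 4.82e-04.

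The well known Treg genes Ctla4, Il2ra and Il10 did not pass the test over all 10 libraries. Ctla4, the inhibitory receptor for CD80 and CD86, ranged over 435.3 to 606.2 CPM in Treg KO and 319.3 to 777.02 CPM in Th1 KO (log2 fold change 0.19 ± 0.24, adjusted p = 0.612). Il2ra, the high affinity chain of the IL-2 receptor, ranged over 1337.1 to 2246.1 CPM in Treg KO and 1951.5 to 3590.99 CPM in Th1 KO (log2 fold change -0.54 ± 0.22, adjusted p = 0.0589). Il2ra passed the threshold without Treg KO 4 or Th1 KO 4 (lowest adjusted p = 0.0293), and with library numbers as a block the adjusted p of Il2ra was 0.0176. Il10, the inhibitory cytokine, stood at 0, 3.21, 0.0391, 0.0243 and 0.0388 CPM in Treg KO, against 2.63, 15.7, 1.62, 1.02 and 2.25 CPM in Th1 KO (log2 fold change -2.80 ± 1.36, adjusted p = 0.119). Its values were near 0 in all Treg KO libraries but number 2. Il10 passed the threshold without Treg KO 2 (lowest adjusted p = 0.00107), and with library numbers as a block the adjusted p of Il10 was 5.01e-05.

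**Figure D2:**
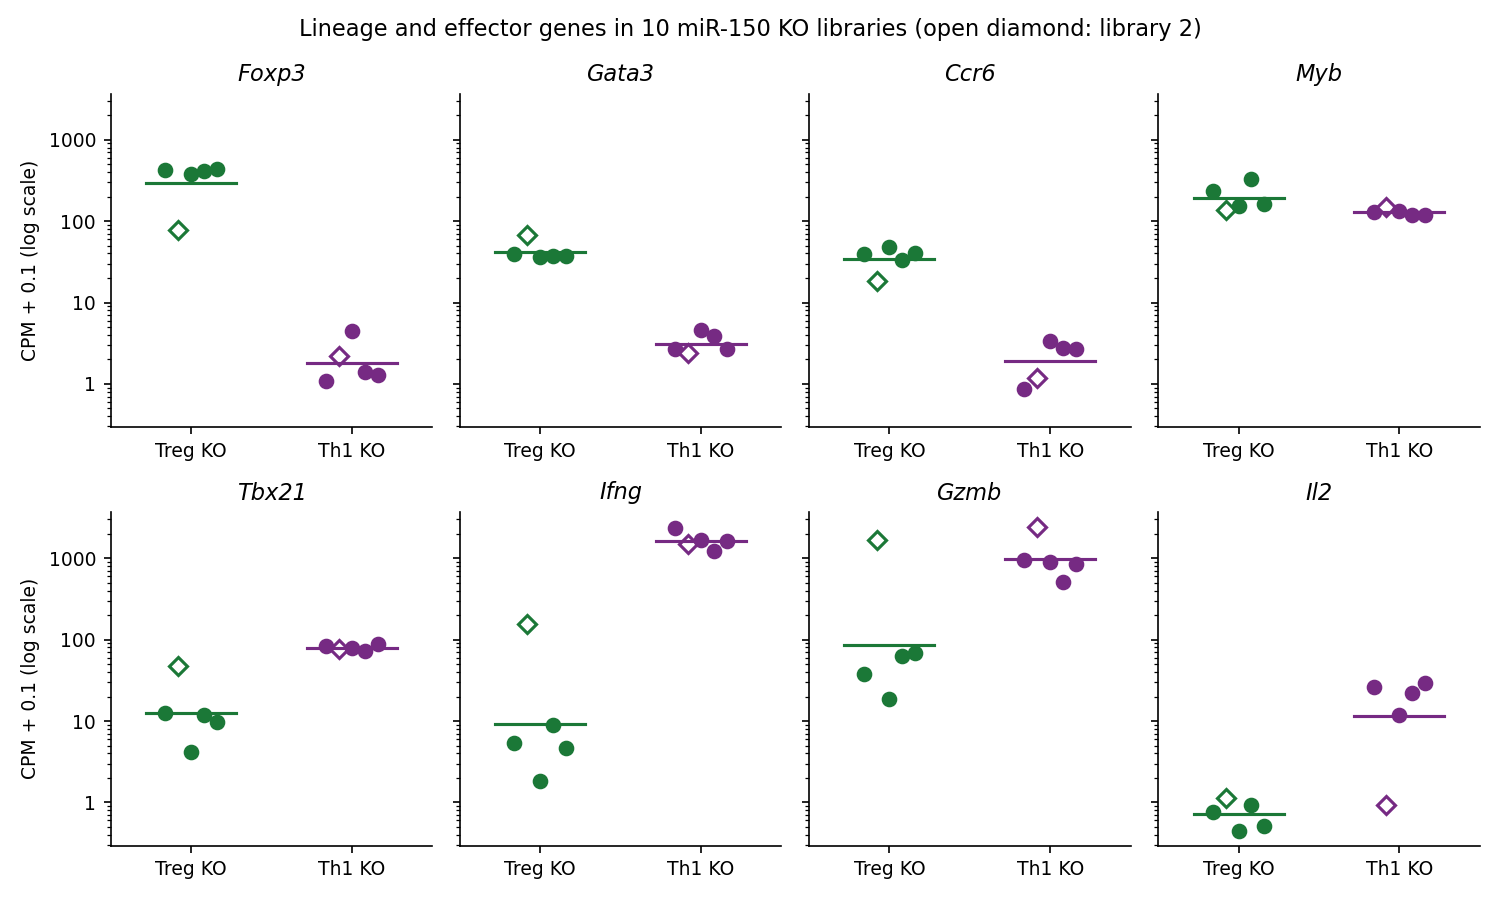
Levels (CPM + 0.1, log scale) of 8 genes in each of the 5 Treg KO libraries (left, green) and the 5 Th1 KO libraries (right, purple); the line is the geometric mean and the open diamond is library 2. Foxp3 and Gata3 separate the cultures upward, Tbx21 and Ifng downward, and library 2 stands apart for Foxp3, Ifng, Gzmb and Il2.

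The receptors for the added TGF-beta rose in Treg KO. Tgfbr1, the type 1 receptor kinase (chr4:47353222-47414931), stood at 195.6, 142.3, 173.4, 227.8 and 176.97 CPM in Treg KO, against 21.7, 16.8, 22.2, 18.1 and 19.6 CPM in Th1 KO (log2 fold change 3.22 ± 0.37, adjusted p = 3.87e-08). Tgfbr2, the type 2 receptor that binds the ligand, stood at 157.1, 95.1, 135.8, 108.2 and 135.1 CPM in Treg KO, against 40.2, 56.2, 45.7, 46 and 46 CPM in Th1 KO (log2 fold change 1.43 ± 0.18, adjusted p = 2.40e-07). Both receptors were higher in every Treg KO library than in any Th1 KO library. The activin receptors Acvr2a and Acvr1b rose by 1.42 ± 0.31 and 1.41 ± 0.25 on the log2 scale, and the BMP receptor Bmpr2 by 0.98 ± 0.24, with adjusted p of 5.86e-04, 3.10e-05 and 0.00173. Of the 19 ligands, receptors and SMADs tested 6 rose and 0 fell, with a median of -0.03. In other fits, 6 were higher and 1 lower with library numbers blocked and 6 were higher and 1 lower without both libraries numbered 2. Leaving out 1 library, 1 was lower without Treg KO 2. The ligand genes were not among those that rose, and Smad3, which carries the signal to DNA, stood at 25.2 to 35 CPM in Treg KO and 27.7 to 49.2 CPM in Th1 KO (log2 fold change -0.20 ± 0.15, adjusted p = 0.35). Its partner Smad4 rose by 0.43 ± 0.12 (adjusted p = 0.0043).

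Genes that restrain TGF-beta signalling rose together with the receptors. Of 12 feedback genes 7 rose and 0 fell, with a median of 1.08, or 0.64 with Smad6 set to its bound, since Smad6 had 4 counts in all Treg KO libraries together and 0 in Th1 KO. Pmepa1, a membrane protein that binds receptor SMADs, stood at 47.4, 54.2, 47.4, 84.5 and 57.2 CPM in Treg KO, against 5.07, 4.68, 10.7, 5.43 and 6.82 CPM in Th1 KO (log2 fold change 3.15 ± 0.27, adjusted p = 4.79e-11). Its relative Ldlrad4 stood at 46.8, 22.6, 51.8, 22 and 40.9 CPM in Treg KO, against 6.59, 7.93, 11.1, 8.16 and 8.27 CPM in Th1 KO (log2 fold change 2.13 ± 0.45, adjusted p = 3.73e-04). No library of either gene overlapped between the cultures. The SMAD repressors Ski and Skil rose by 1.73 ± 0.24 and 1.62 ± 0.15 on the log2 scale, and the inhibitory Smad7 by 1.45 ± 0.28, with adjusted p of 6.29e-07, 4.78e-10 and 1.16e-04. In wild type cells 9 of the 12 feedback genes rose and 0 fell in Treg WT relative to Th1 WT, where 15.62% and 15.18% of all genes did.

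**Figure D3:**
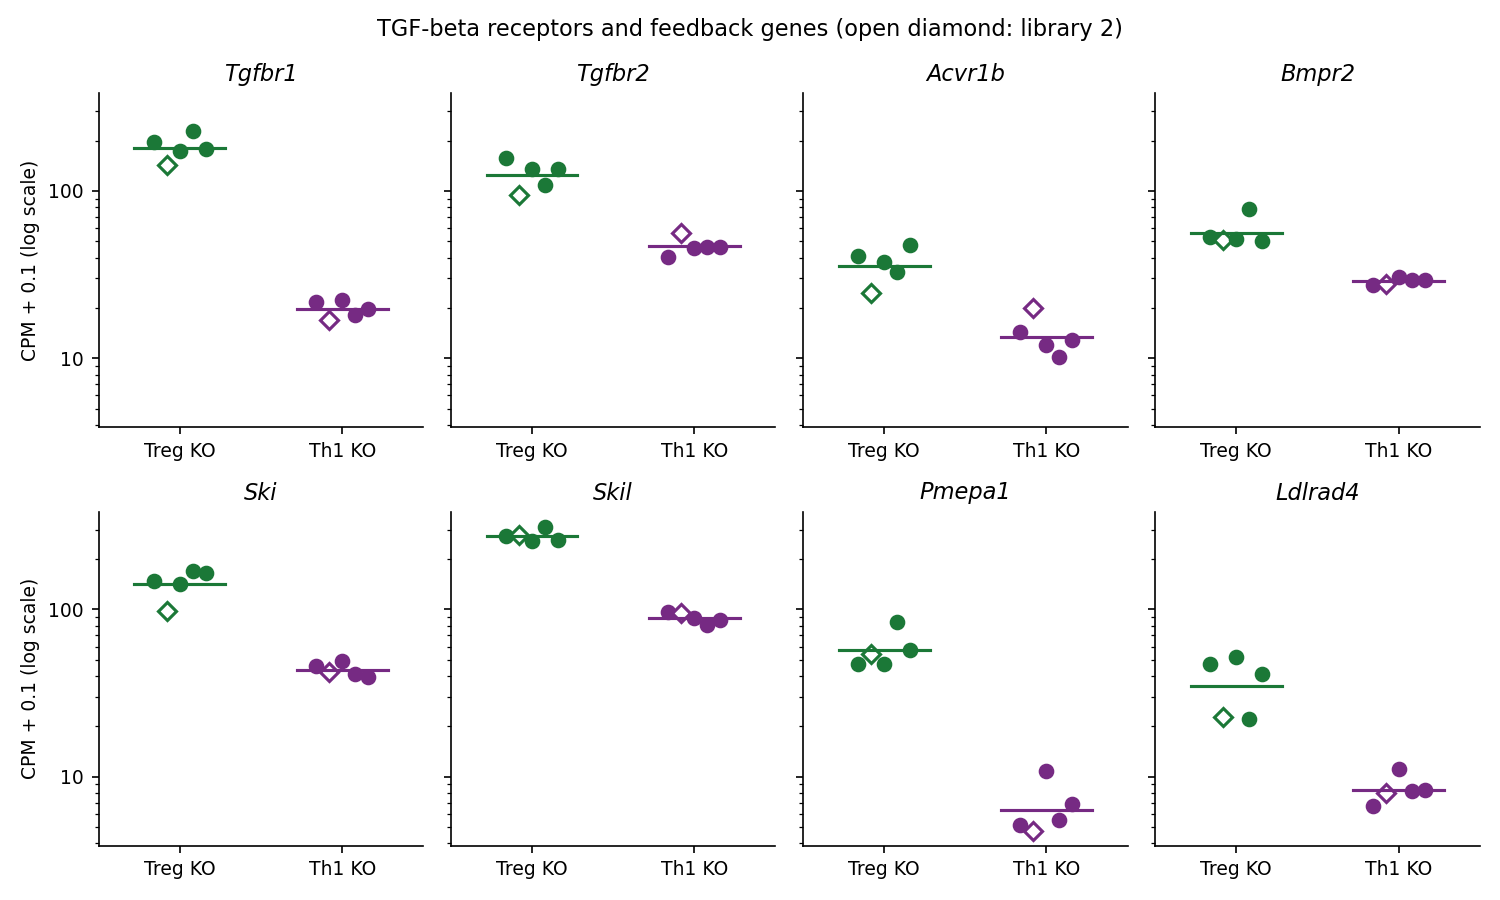
Levels (CPM + 0.1, log scale) of 4 receptors (top row) and 4 feedback genes (bottom row) of the TGF-beta pathway in the 5 Treg KO libraries (left, green) and the 5 Th1 KO libraries (right, purple); the line is the geometric mean and the open diamond is library 2. In all 8 panels every Treg KO library lies above every Th1 KO library.

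The Th1 genes showed the opposite pattern. Ifng, the defining cytokine of Th1 cells (chr10:118441046-118445892), stood at 5.25, 157.2, 1.74, 8.88 and 4.52 CPM in Treg KO, against 2350.6, 1489.3, 1666.7, 1234.7 and 1631.9 CPM in Th1 KO. The groups did not overlap, and Treg KO 2 was far above the other Treg KO libraries (log2 fold change -5.56 ± 1.61, adjusted p = 0.00759). Without both libraries numbered 2 it was -8.45 ± 1.26 (adjusted p = 4.55e-06). Tbx21, which encodes T-bet (chr11:97098071-97115331), stood at 12.6, 47.3, 4.06, 11.7 and 9.72 CPM in Treg KO, against 82.2, 76.2, 79.1, 71.8 and 87.4 CPM in Th1 KO (log2 fold change -2.22 ± 0.79, adjusted p = 0.0308). Tbx21 lost its call without Treg KO 1, 3, 4 or 5 (highest adjusted p = 0.0795). Of 20 Th1 genes listed 1 rose and 10 fell, with a median of -1.08. Of these genes, 2 were higher and 10 lower with library numbers blocked and 2 were higher and 11 lower without both libraries numbered 2. With 1 library left out, 2 were higher without Th1 KO 2 and 6 were lower without Treg KO 1, 3, 4 or 5. Hlx, a homeobox factor that works with T-bet, was listed at 0 in 4 of the 5 Treg KO libraries and stood at 1.52 to 5.92 CPM in Th1 KO (log2 fold change -6.53 ± 1.29, adjusted p = 1.60e-04). Twist1, which limits Th1 inflammation, had 0 counts in Treg KO and stood at 0.0902 to 0.47 CPM in Th1 KO, so it was at least 30.5-fold lower in Treg KO. Bhlhe40, which Th1 cells need for full cytokine output, fell by 2.01 on the log2 scale (SE 0.41, adjusted p = 2.47e-04).

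Il12rb2 and Stat4, which carry the IL-12 signal, fell as well, but both calls were lost when most single libraries were left out. Il12rb2, the signalling chain, stood at 104.7, 291.7, 59, 168.5 and 120.1 CPM in Treg KO, against 712.3, 994.99, 524.5, 553.7 and 621.98 CPM in Th1 KO (log2 fold change -2.20 ± 0.83, adjusted p = 0.042). Il12rb2 lost its call without Treg KO 1, 3, 4 or 5 or Th1 KO 1, 2, 4 or 5 (highest adjusted p = 0.0968). Stat4, the STAT that IL-12 activates, stood at 85.9, 207.5, 107.1, 119.2 and 99 CPM in Treg KO, against 255.8, 132.9, 277.1, 334.5 and 265.7 CPM in Th1 KO (log2 fold change -1.03 ± 0.39, adjusted p = 0.0432). The libraries numbered 2 were the highest of Treg KO and the lowest of Th1 KO, so the groups overlapped. Stat4 lost its call without Treg KO 1, 3, 4 or 5 or Th1 KO 1, 3, 4 or 5 (highest adjusted p = 0.103), and with library numbers as a block the adjusted p of Stat4 was 0.0668.

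Of 15 cytokine genes that T cells turn on when activated 1 rose and 10 fell, with a median of -1.45. Il2, the growth factor of T cells, stood at 0.667, 1.02, 0.352, 0.825 and 0.417 CPM in Treg KO, against 26.1, 0.837, 11.9, 21.7 and 29.6 CPM in Th1 KO (log2 fold change -4.78 ± 1.03, adjusted p = 5.02e-04). Th1 KO 2 lay within the range of Treg KO, and the other 4 Th1 KO libraries were above it. Il3, a growth factor of myeloid precursors and mast cells, stood at 0.113, 1.06, 0.137, 0.327 and 0.165 CPM in Treg KO, against 32.8, 13.5, 31.2, 27.9 and 25.1 CPM in Th1 KO (log2 fold change -6.16 ± 1.03, adjusted p = 1.84e-05). Areg, an epidermal growth factor receptor ligand, and Il6 fell by 3.20 and 2.23 on the log2 scale, with SE of 0.87 and 0.69 and adjusted p of 0.00481 and 0.0132. Tnf, the inflammatory cytokine, ranged over 14.9 to 22.8 CPM in Treg KO and 40.3 to 55.2 CPM in Th1 KO (log2 fold change -1.31 ± 0.20, adjusted p = 5.14e-06). Ltb, which encodes lymphotoxin beta, was the 1 gene that rose, at 133.6, 57.7, 161.3, 102.7 and 161.02 CPM in Treg KO, against 21.6, 48.2, 22.7, 20 and 23.8 CPM in Th1 KO (log2 fold change 2.18 ± 0.35, adjusted p = 1.13e-05).

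Of 12 secreted chemokines tested 2 rose and 6 fell, with a median of -1.63. By comparison, 1 was higher and 6 lower without both libraries numbered 2. When single libraries were left out, 1 was higher without Treg KO 1 or 2 or Th1 KO 1, 2, 4 or 5. Ccl3 and Ccl4, chemokines that draw T cells and macrophages, stood at 3.75 to 11.6 and 3.44 to 12.8 CPM in Treg KO, against 35.8 to 170.3 and 37 to 135.05 CPM in Th1 KO, with log2 fold changes of -4.06 ± 0.85 and -3.84 ± 0.77 and adjusted p of 3.43e-04 and 2.11e-04. Cxcl10 and Cxcl11, CXCR3 ligands induced by interferons, stood at 0.381 to 2.04 and 0 to 0.417 CPM in Treg KO, against 4.58 to 13.6 and 1.49 to 2.5 CPM in Th1 KO, with log2 fold changes of -3.10 ± 0.68 and -4.09 ± 1.17 and adjusted p of 5.51e-04 and 0.00688. All 4 chemokine genes kept the cultures apart without overlap.

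Some markers of the other helper fates rose and others fell. Gata3, the Th2 factor (chr2:9857078-9890034), stood at 39.8, 67.4, 35.8, 37.1 and 36.9 CPM in Treg KO, against 2.56, 2.27, 4.53, 3.77 and 2.59 CPM in Th1 KO (log2 fold change 3.79 ± 0.43, adjusted p = 2.65e-08). The groups did not overlap, and Treg KO 2 was the highest library. The Th2 cytokine gene Il4 was low in both, at 0.17 to 2.22 CPM in Treg KO and 0.162 to 0.66 CPM in Th1 KO. Of 13 genes of the Th2 list 4 rose and 2 fell, against 14.96% and 15.02% of all genes, with a median of 1.0. In other fits, 4 were higher and 3 lower with library numbers blocked (median 0.3) and 3 were higher and 3 lower without both libraries numbered 2 (median 0.62). Ccr8, a chemokine receptor of Th2 and tissue regulatory cells, and Maf, a factor for IL-4 and IL-10, rose by 3.11 ± 0.51 and 2.72 ± 0.66 on the log2 scale, with adjusted p of 1.15e-05 and 0.00166. Il1rl1, the IL-33 receptor, fell by 2.75 on the log2 scale (SE 0.62, adjusted p = 7.16e-04).

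Of 15 genes of the Th17 list 4 rose and 5 fell, with a median of 0.37. Of these genes, 5 were higher and 5 lower with library numbers blocked (median 0.24). In wild type 9 rose and 4 fell, where 15.62% and 15.18% of all genes did. Over all genes, the difference between the KO and WT effects passed for 0 by edgeR and for 31 by DESeq2. Il17a itself stood at 0.0587 to 0.34 CPM in Treg KO and 0.248 to 1.22 CPM in Th1 KO (log2 fold change -1.76 ± 1.23, adjusted p = 0.307). Ccr6, a chemokine receptor of Th17 and regulatory cells, stood at 39.6, 18.1, 47.4, 33.3 and 40.1 CPM in Treg KO, against 0.769, 1.07, 3.24, 2.68 and 2.56 CPM in Th1 KO (log2 fold change 4.11 ± 0.68, adjusted p = 1.64e-05). Its ligand Ccl20 had 490 counts in Treg KO and 0 in Th1 KO, so it was at least 182.3-fold higher in Treg KO. Il22, a cytokine that acts on epithelia, had 0 counts in Treg KO and 960 in Th1 KO, so it was at least 286.7-fold lower in Treg KO. Il23r, the receptor that sustains Th17 cells, stood at 0.0566, 0.632, 0, 0.0849 and 0.136 CPM in Treg KO, against 13.9, 20.9, 7.11, 6.32 and 10.4 CPM in Th1 KO (log2 fold change -5.99 ± 1.09, adjusted p = 6.26e-05). Il21, a cytokine of follicular helper and Th17 cells, stood at 0.0453, 7.24, 0, 0.0364 and 0.0291 CPM in Treg KO, against 75.6, 148.3, 38.1, 49.1 and 59.2 CPM in Th1 KO (log2 fold change -5.64 ± 1.65, adjusted p = 0.00839).

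Many genes that IFN-gamma induces rose in the culture that held far less Ifng RNA and was given antibody to IFN-gamma. Not all did: Cxcl10 and Cxcl11, induced by interferons but counted with the chemokines above, fell without overlap. Of 27 genes of the interferon-gamma response list 20 rose and 0 fell in Treg KO, with a median log2 fold change of 1.09. They include guanylate-binding proteins (GBPs) and immunity-related GTPases, which attack the vacuoles of intracellular microbes, parts of the antigen processing machinery, and the factor IRF1 that carries the signal on. The GAS motif, TTCNNNGAA, is the response element of IFN-gamma, and IRF9 and IRF1 bind variants of the ISRE, with the core searched here as GAAANNGAA. Both motifs were searched on both strands in the RefSeq promoters of the mouse genome (GRCm38.p6), from 250 bases before to 50 bases after the start of each gene. Of the 27 genes 18 had a promoter in the table, and 10 (55.6%) of these held TTCNNNGAA and 10 held GAAANNGAA. Over all 27025 symbols with a promoter the shares were 9.55% and 9.76%, and the motifs overlapped each other in 54 of 32851 promoters. A match is a description of these letters, not evidence of binding.

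The promoters of 5 genes of the interferon lists are printed because they show where these motifs lie in genes that rose, with each match of either motif, on either strand, in capitals. Irf1 (chr11:53769764-53770063, plus strand), Gbp7 (chr3:142530086-142530385, plus strand) and Igtp (chr11:58199306-58199605, plus strand) hold TTCNNNGAA, and Gbp7 and Igtp hold 1 match of GAAANNGAA each as well. Irgm1 (chr11:48871371-48871670, minus strand) and Ifit3 (chr19:34583279-34583578, plus strand) hold GAAANNGAA. All are read 5′ to 3′ along the gene. The RefSeq table holds 2 promoters for Irf1, of which the first is printed.
Irf1: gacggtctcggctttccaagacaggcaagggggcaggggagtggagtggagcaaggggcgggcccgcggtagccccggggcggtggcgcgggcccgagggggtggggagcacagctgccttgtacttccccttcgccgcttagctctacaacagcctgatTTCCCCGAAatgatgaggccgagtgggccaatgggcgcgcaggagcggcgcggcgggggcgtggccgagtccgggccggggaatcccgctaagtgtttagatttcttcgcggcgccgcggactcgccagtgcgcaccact
Gbp7: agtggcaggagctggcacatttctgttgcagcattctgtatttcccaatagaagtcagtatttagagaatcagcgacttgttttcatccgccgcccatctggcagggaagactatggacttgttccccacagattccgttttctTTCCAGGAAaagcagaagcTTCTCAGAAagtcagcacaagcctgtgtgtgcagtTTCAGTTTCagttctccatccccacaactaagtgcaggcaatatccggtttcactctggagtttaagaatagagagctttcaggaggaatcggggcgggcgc
Igtp: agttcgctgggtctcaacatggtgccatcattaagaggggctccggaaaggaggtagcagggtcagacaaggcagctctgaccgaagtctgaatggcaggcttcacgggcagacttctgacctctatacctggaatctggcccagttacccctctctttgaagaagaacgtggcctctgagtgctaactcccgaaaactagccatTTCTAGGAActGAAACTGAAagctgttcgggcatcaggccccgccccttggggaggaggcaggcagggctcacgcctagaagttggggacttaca
Irgm1: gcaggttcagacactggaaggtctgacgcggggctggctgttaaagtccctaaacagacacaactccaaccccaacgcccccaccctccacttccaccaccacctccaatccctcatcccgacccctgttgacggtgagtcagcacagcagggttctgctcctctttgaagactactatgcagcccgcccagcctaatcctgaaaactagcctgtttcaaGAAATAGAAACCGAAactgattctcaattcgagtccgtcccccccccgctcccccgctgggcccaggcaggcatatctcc
Ifit3: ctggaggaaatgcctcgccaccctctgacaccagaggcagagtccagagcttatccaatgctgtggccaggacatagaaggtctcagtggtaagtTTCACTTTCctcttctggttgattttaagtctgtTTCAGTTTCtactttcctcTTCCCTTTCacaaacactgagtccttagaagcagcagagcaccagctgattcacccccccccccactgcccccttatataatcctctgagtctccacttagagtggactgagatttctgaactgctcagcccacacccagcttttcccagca

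Irf1, which holds 1 GAS motif, stood at 371.2, 228.8, 284.4, 258.5 and 321.3 CPM in Treg KO, against 100.8, 137.1, 96, 100.5 and 106.9 CPM in Th1 KO (log2 fold change 1.44 ± 0.27, adjusted p = 7.42e-05). Every Treg KO library was above every Th1 KO library. Gbp6, a guanylate-binding protein (chr5:105270702-105293698), stood at 257.7, 132.97, 219.6, 243.8 and 220.7 CPM in Treg KO, against 32.8, 43.4, 37, 42.9 and 44.4 CPM in Th1 KO (log2 fold change 2.42 ± 0.47, adjusted p = 1.26e-04). Irgm1, a GTPase that guards host membranes and whose promoter holds 2 overlapping ISRE cores, stood at 281.2, 205.3, 212.98, 260.2 and 268.2 CPM in Treg KO, against 73.9, 78.2, 73.2, 77.6 and 84.2 CPM in Th1 KO (log2 fold change 1.67 ± 0.28, adjusted p = 1.81e-05). Both genes separated the cultures, and Treg KO 2 was the lowest Treg KO library for each. Gbp7, with 2 GAS motifs, stood at 140.8, 66.4, 98, 117.4 and 120.5 CPM in Treg KO, against 35.6, 90.2, 35.3, 36.3 and 57.5 CPM in Th1 KO (log2 fold change 1.09 ± 0.32, adjusted p = 0.00827). Its groups overlapped, since Th1 KO 2 was higher than Treg KO 2. Igtp, an immunity-related GTPase, rose by 0.71 ± 0.20 on the log2 scale and Iigp1, another, by 3.41 ± 0.56, with adjusted p of 0.00567 and 1.32e-05. Gbp10 and Tgtp2 rose by 2.30 ± 0.57 and 2.14 ± 0.31, but each may share reads with a near-identical neighbour, Gbp6 and Tgtp1. The separate values of these genes, those of Gbp6 above and below included, are therefore uncertain. Of the antigen processing genes, the peptide transporter Tap1 rose by 0.95 ± 0.21 and the immunoproteasome subunit Psmb9 by 1.03 ± 0.20, with adjusted p of 5.49e-04 and 1.24e-04. Gbp5, which also marks the response, did not pass, at 157.03 to 378.2 CPM in Treg KO and 231.2 to 343.5 CPM in Th1 KO (log2 fold change 0.14 ± 0.30, adjusted p = 0.785).

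The receptor chains for IFN-gamma rose too. Ifngr1 and Ifngr2 rose by 1.12 ± 0.26 and 1.89 ± 0.19 on the log2 scale, with adjusted p of 9.05e-04 and 1.94e-09. In wild type cells the same list had 2 genes higher and 5 lower in Treg WT, with a median of 0.02, where 15.62% and 15.18% of all genes were. In knock-in cells 5 were higher and 2 lower in Treg KI, with a median of 0.31, where 17.02% and 15.82% of all genes were. Gbp2 had a log2 fold change of 1.31 ± 0.42 (adjusted p = 0.0149) in KO and of -1.54 ± 0.42 (adjusted p = 0.00468) in WT. Gbp2 lost its call without Treg KO 1 (highest adjusted p = 0.0534). The difference between the culture effects of KO and WT was 2.85 ± 0.59 (adjusted p = 0.165) for Gbp2 and 2.15 ± 0.63 (adjusted p = 0.374) for Gbp6, and over the list it had a median of 1.29, against 0 over all genes. By edgeR none of the 27 differences passed the threshold. DESeq2 called 3 of them, Gbp2, Gbp3 and Gbp7, among 31 genes in all. The edgeR fit without the libraries numbered KO 2, WT 4 and KI 3 called 2 of them, Gbp2 and Gbp7, among 6 genes. For the difference between the culture effects of KO and KI, 0 of the 27 passed by edgeR, by DESeq2 or in the fit without those libraries. Gbp6 ranged over 24.9 to 175.95 CPM in Treg WT and 33.1 to 129.04 CPM in Th1 WT, so the WT groups overlapped where the KO groups did not.

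**Figure D4:**
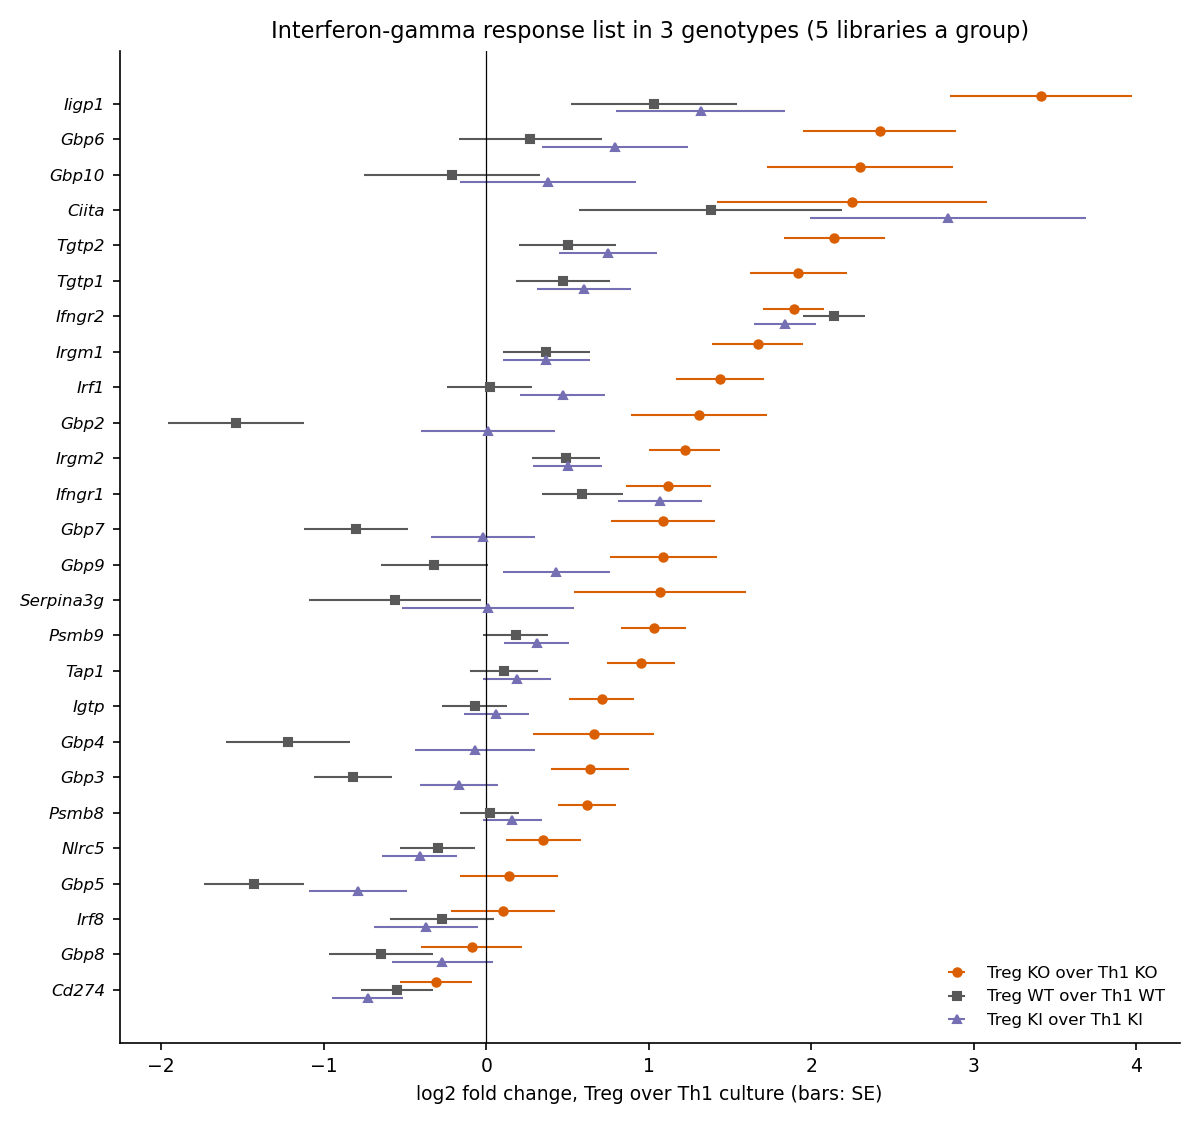
Log2 fold change of Treg over Th1 culture with its SE (horizontal axis) for the interferon-gamma response list (vertical axis; 1 of its 27 genes is not drawn), in KO (orange circles), WT (grey squares) and KI (purple triangles), with 5 libraries in each group. In KO 20 genes rose, with a median of 1.09; the medians were 0.02 in WT and 0.31 in KI.

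Of 24 genes of the antiviral response to type I interferon 10 rose and 0 fell, with a median of 0.91. Without overlap 8 were higher and 2 lower in Treg KO, as were 2451 and 2410 of all 21873 genes. In wild type 4 rose and 3 fell (median -0.02), where 15.62% and 15.18% of all genes did. In knock-in cells 2 rose and 6 fell (median -0.49), where 17.02% and 15.82% of all genes did. In KO, 12 were higher and 3 lower with library numbers blocked. Ifit3, whose promoter holds 3 ISRE cores, stood at 22.7, 4.25, 20.6, 32.2 and 30.8 CPM in Treg KO, against 0.835, 0.304, 1.59, 1.78 and 1.04 CPM in Th1 KO (log2 fold change 4.32 ± 0.69, adjusted p = 9.32e-06). Rtp4, an interferon-induced chaperone, stood at 17.1, 1.71, 15.8, 10.6 and 24.4 CPM in Treg KO, against 0.274, 0.558, 0.604, 1.24 and 1.66 CPM in Th1 KO (adjusted p = 1.55e-04). Neither gene overlapped between the cultures. Isg20, an RNA exonuclease, and Oas2, a sensor of double-stranded RNA, rose by 2.33 ± 0.44 and 2.21 ± 0.63 on the log2 scale, with adjusted p of 1.08e-04 and 0.00706. Usp18, which removes ISG15 and damps interferon signalling, had lower values in all 5 Treg KO libraries without passing the test, at 56.7, 61.6, 55.8, 65.8 and 81 CPM in Treg KO, against 158.6, 157.7, 166.1, 197.9 and 190.3 CPM in Th1 KO (log2 fold change -1.44 ± 0.65, adjusted p = 0.0897). With library numbers as a block, the adjusted p of Usp18 was 0.00735. Usp18 also passed when the 10 libraries were fitted alone and with a Cd8a term. Isg15 ranged over 4.71 to 24.4 CPM in Treg KO and 10.8 to 27.4 CPM in Th1 KO. Of the 18 antiviral genes with a listed promoter, 4 held TTCNNNGAA and 11 held GAAANNGAA.

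Of 22 genes of naive and quiescent T cells tested 12 rose and 1 fell, with a median of 0.71. Klf2, a factor that keeps T cells quiescent and circulating (chr8:72319033-72321656), stood at 48.9, 3.78, 56.2, 25.8 and 55.9 CPM in Treg KO, against 0.483, 0.803, 0.775, 0.855 and 0.717 CPM in Th1 KO (log2 fold change 5.71 ± 0.72, adjusted p = 1.90e-07). Treg KO 2 was far below the other Treg KO libraries and still above all of Th1 KO. Klf3, a related repressor, stood at 75.8, 12.5, 91.5, 46.9 and 75.3 CPM in Treg KO, against 5.01, 4.87, 6.56, 9.21 and 10.1 CPM in Th1 KO (log2 fold change 3.08 ± 0.54, adjusted p = 3.64e-05). Il6ra, the IL-6 receptor chain, and Rasgrp2, an activator of the integrin regulator RAP1, rose by 2.78 ± 0.42 and 2.22 ± 0.37 on the log2 scale, with adjusted p of 3.99e-06 and 1.38e-05. Tcf7 and Foxo1, factors of naive and memory T cells, rose by 1.25 ± 0.30 and 1.03 ± 0.17, with adjusted p of 0.00127 and 2.20e-05. The 1 gene that fell was Satb1, a chromatin organiser, at 165.96, 331.1, 140.9, 132.3 and 141.8 CPM in Treg KO, against 842.5, 1058.5, 646.03, 653.1 and 768.1 CPM in Th1 KO (log2 fold change -2.12 ± 0.34, adjusted p = 7.84e-06). Ccr7, the lymph node homing receptor, ranged over 441.8 to 595.4 CPM in Treg KO and 340.8 to 602.6 CPM in Th1 KO (log2 fold change 0.18 ± 0.22, adjusted p = 0.581).

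Receptors that direct migration changed in both directions. Of 18 chemokine and trafficking receptors 7 rose and 4 fell, with a median of 0.49. Besides Ccr6 and Ccr8, the gut homing receptor Ccr9 rose, by 3.32 ± 0.58 on the log2 scale (adjusted p = 3.06e-05). The eotaxin receptor Ccr3 fell, to 0 to 0.175 CPM in Treg KO, against 0.406 to 2.24 CPM in Th1 KO (log2 fold change -4.49 ± 1.12, adjusted p = 0.0022). Gpr183, or EBI2, which follows oxysterols, stood at 13.6, 15.8, 12.3, 8.49 and 12.9 CPM in Treg KO, against 67.1, 72.2, 63, 74 and 70 CPM in Th1 KO (log2 fold change -2.46 ± 0.29, adjusted p = 6.01e-08). Its values were close together within each culture and did not overlap.

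Among 17 integrin subunits 6 rose and 4 fell, with a median of 0.34. Itga6, a laminin receptor subunit, stood at 354.6, 122.4, 325.6, 451.2 and 373.1 CPM in Treg KO, against 48.6, 43.9, 55.5, 61.8 and 52.8 CPM in Th1 KO (log2 fold change 2.63 ± 0.31, adjusted p = 3.93e-08). Itgb7, the partner of Itgae and of the gut homing subunit Itga4, rose by 2.08 ± 0.33 on the log2 scale (adjusted p = 7.30e-06). Itga3, another laminin receptor subunit, fell by 2.82 and Itgb8, which activates latent TGF-beta, by 2.32, with SE of 0.59 and 0.50 and adjusted p of 3.45e-04 and 5.04e-04. Itgb8 is also on the Treg programme list, where it was 1 of the 3 genes that fell.

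Of 19 genes that report signalling through the T cell receptor 1 rose and 7 fell, with a median of -0.59. In other fits, 2 were higher and 9 lower with library numbers blocked. Nr4a2, an orphan nuclear receptor induced on activation, stood at 16.6, 30.1, 12.9, 24.9 and 13.3 CPM in Treg KO, against 101.7, 61.5, 111.5, 122.1 and 114.9 CPM in Th1 KO (log2 fold change -2.39 ± 0.44, adjusted p = 6.53e-05). Its relative Nr4a1 ranged over 57.7 to 84.8 CPM in Treg KO and 50.9 to 96.5 CPM in Th1 KO (log2 fold change -0.21 ± 0.28, adjusted p = 0.624). Irf4, which scales with receptor strength, and the growth factor Myc fell by 0.93 and 0.59 on the log2 scale, with SE of 0.24 and 0.17 and adjusted p of 0.00258 and 0.00841. The ERK phosphatase Dusp4 was the 1 gene that rose, by 1.14 ± 0.18 (adjusted p = 5.82e-06).

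Of 20 costimulatory and inhibitory receptors and ligands 4 rose and 7 fell, with a median of -0.6. Of these genes, 4 were higher and 11 lower with library numbers blocked. With 1 library left out, 3 were lower without Treg KO 3. Cd40lg, the ligand by which helper cells license B cells and dendritic cells, stood at 28.2, 12.7, 22.6, 26.2 and 20.7 CPM in Treg KO, against 207.6, 89.7, 179.3, 205.04 and 184.3 CPM in Th1 KO (log2 fold change -2.97 ± 0.39, adjusted p = 4.38e-07). Cd101, an inhibitory receptor, stood at 68.2, 18, 73.1, 41.6 and 71.1 CPM in Treg KO, against 1.3, 2.58, 3.07, 1.48 and 1.25 CPM in Th1 KO (log2 fold change 4.81 ± 0.53, adjusted p = 1.26e-08). The cultures did not overlap for either. Pdcd1, or PD-1, rose by 1.06 ± 0.24 on the log2 scale, and Cd200, whose product inhibits myeloid cells, fell by 1.20 (SE 0.26), with adjusted p of 9.50e-04 and 5.76e-04.

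Among 22 factors of the AP-1, BATF, IRF and BLIMP families 4 rose and 8 fell, with a median of -0.37. Fosl2, a FOS family member, stood at 20.2, 80.9, 18.7, 42.4 and 28.3 CPM in Treg KO, against 277.6, 308.2, 336.4, 342.5 and 314.1 CPM in Th1 KO (log2 fold change -3.05 ± 0.62, adjusted p = 2.22e-04). Batf3, an AP-1 partner, stood at 0.339, 8.39, 0.626, 0.546 and 0.989 CPM in Treg KO, against 29.5, 34.9, 37.9, 28.5 and 22.3 CPM in Th1 KO (log2 fold change -3.81 ± 1.21, adjusted p = 0.0145). In both, Treg KO 2 was the highest Treg KO library and was below all of Th1 KO. Fosl1 and Prdm1, which encodes BLIMP-1 and marks terminal effectors, fell by 3.33 and 2.37 on the log2 scale, with SE of 0.52 and 0.76 and adjusted p of 5.82e-06 and 0.0154.

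Of 19 STAT, JAK and SOCS genes 5 rose and 3 fell, with a median of 0.11. Socs2, a STAT5 target that restrains cytokine receptors, stood at 180.1, 116.6, 200.5, 285.4 and 236.8 CPM in Treg KO, against 16.1, 28, 10.8, 5.63 and 12 CPM in Th1 KO (log2 fold change 3.81 ± 0.52, adjusted p = 7.21e-07). Socs3, which blocks IL-6 family and IL-12 signalling, stood at 20.2, 35.9, 20.9, 29.2 and 38.1 CPM in Treg KO, against 143.7, 143.5, 202.4, 193.7 and 163.4 CPM in Th1 KO (log2 fold change -2.55 ± 0.47, adjusted p = 6.27e-05). These suppressors thus lay on opposite sides, each without overlap. Jak1 rose by 0.56 ± 0.11 and Stat5a fell by 0.67 (SE 0.19) on the log2 scale, with adjusted p of 2.02e-04 and 0.00795.

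Cytotoxic genes could not be read without regard to library 2. Gzmb, which encodes granzyme B, stood at 37.4, 1657.1, 18.7, 62.5 and 67.7 CPM in Treg KO, against 954.3, 2404.6, 889.6, 516.5 and 851.8 CPM in Th1 KO (log2 fold change -1.61 ± 1.35, adjusted p = 0.406). Treg KO 2 was within the range of Th1 KO, and the other 4 Treg KO libraries were below all of it. Gzmb passed the threshold without Treg KO 2 (lowest adjusted p = 0.0199), and with library numbers as a block the adjusted p of Gzmb was 0.0138. Prf1, the pore-forming perforin, stood at 2.72, 18.8, 1.72, 1.83 and 2.59 CPM in Treg KO, against 20.4, 83.8, 26.8, 22.2 and 28 CPM in Th1 KO (log2 fold change -2.71 ± 1.16, adjusted p = 0.0739). Prf1 passed the threshold without Treg KO 2 (lowest adjusted p = 0.0156), and with library numbers as a block the adjusted p of Prf1 was 2.08e-07. Of 14 cytotoxic genes 2 rose and 2 fell, with a median of 0.73. By comparison, 2 were higher and 4 lower with library numbers blocked (median -1.58) and 2 were higher and 7 lower without both libraries numbered 2 (median -3.03). When single libraries were left out, 4 were lower without Treg KO 2. The CD8 marker Cd8a stood at 5.67, 73.1, 13.1, 13.2 and 15.4 CPM in Treg KO, against 1.34, 21.3, 31.7, 3.39 and 8.11 CPM in Th1 KO, and its part in these values was not tested. Serpinb9, the inhibitor that protects cells from granzyme B, fell without overlap, to 49.3, 111.2, 47.5, 66.6 and 47.5 CPM in Treg KO, against 372.6, 200.1, 415.5, 499.2 and 431.3 CPM in Th1 KO (log2 fold change -2.57 ± 0.42, adjusted p = 1.15e-05). Ctsw, a protease of cytotoxic cells, rose by 2.68 ± 0.61 on the log2 scale (adjusted p = 8.93e-04).

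Myb, the best known target of miR-150 (chr10:21124935-21160984), stood at 233.1, 136.04, 153.3, 326.01 and 161.4 CPM in Treg KO, against 130.98, 148.9, 134.8, 117.9 and 117.4 CPM in Th1 KO (log2 fold change 0.64 ± 0.23, adjusted p = 0.0359). The groups overlapped, and Treg KO 4 was the highest library. Myb lost its call without Treg KO 1 or 4 or Th1 KO 1, 3, 4 or 5 (highest adjusted p = 0.244), and with library numbers as a block the adjusted p of Myb was 0.0831. Both cultures lack miR-150. In wild type the log2 fold change of Myb was 0.21 ± 0.23 (adjusted p = 0.541). Of 14 reported miR-150 targets 6 rose and 3 fell, with a median of 0.4, and in wild type 6 rose and 2 fell, with a median of 0.3. In other fits, 7 were higher and 5 lower without both libraries numbered 2. Leaving out 1 library, 5 were lower without Th1 KO 2. Beside Ccr6 and Foxo1, the ubiquitin ligase gene Cbl rose, by 0.57 ± 0.10 on the log2 scale (adjusted p = 5.90e-05). P2rx7, the ATP-gated channel, stood at 8.52, 10.9, 7.03, 4.94 and 10.4 CPM in Treg KO, against 34, 63.3, 19.7, 17 and 27 CPM in Th1 KO (log2 fold change -1.94 ± 0.39, adjusted p = 1.90e-04). Zeb1, a zinc finger repressor of Il2, fell by 0.86 (SE 0.16, adjusted p = 6.60e-05).

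Of 22 cell cycle genes 8 rose and 2 fell, with a median of 0.27. Of these genes, 8 were higher and 3 lower without both libraries numbered 2 (median 0.15). Mki67, the Ki-67 antigen of dividing cells, ranged over 1586.5 to 2290.8 CPM in Treg KO and 820.6 to 1152.8 CPM in Th1 KO (log2 fold change 0.96 ± 0.16, adjusted p = 1.45e-05). The inhibitors of cyclin-dependent kinases parted. Cdkn1a, or p21, stood at 34.9, 123.5, 38, 120.4 and 56.8 CPM in Treg KO, against 282.9, 368.1, 321.8, 345.4 and 300.5 CPM in Th1 KO (log2 fold change -2.11 ± 0.48, adjusted p = 8.46e-04), while Cdkn1b, or p27, rose by 1.26 ± 0.22 and Cdkn2c, or p18, by 1.35 ± 0.23, with adjusted p of 2.49e-05 and 2.24e-05.

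The calls per list are set side by side in the bar chart. The share of genes that rose was highest in the interferon-gamma response list and the share that fell was highest among the activation cytokines.

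**Figure D5:**
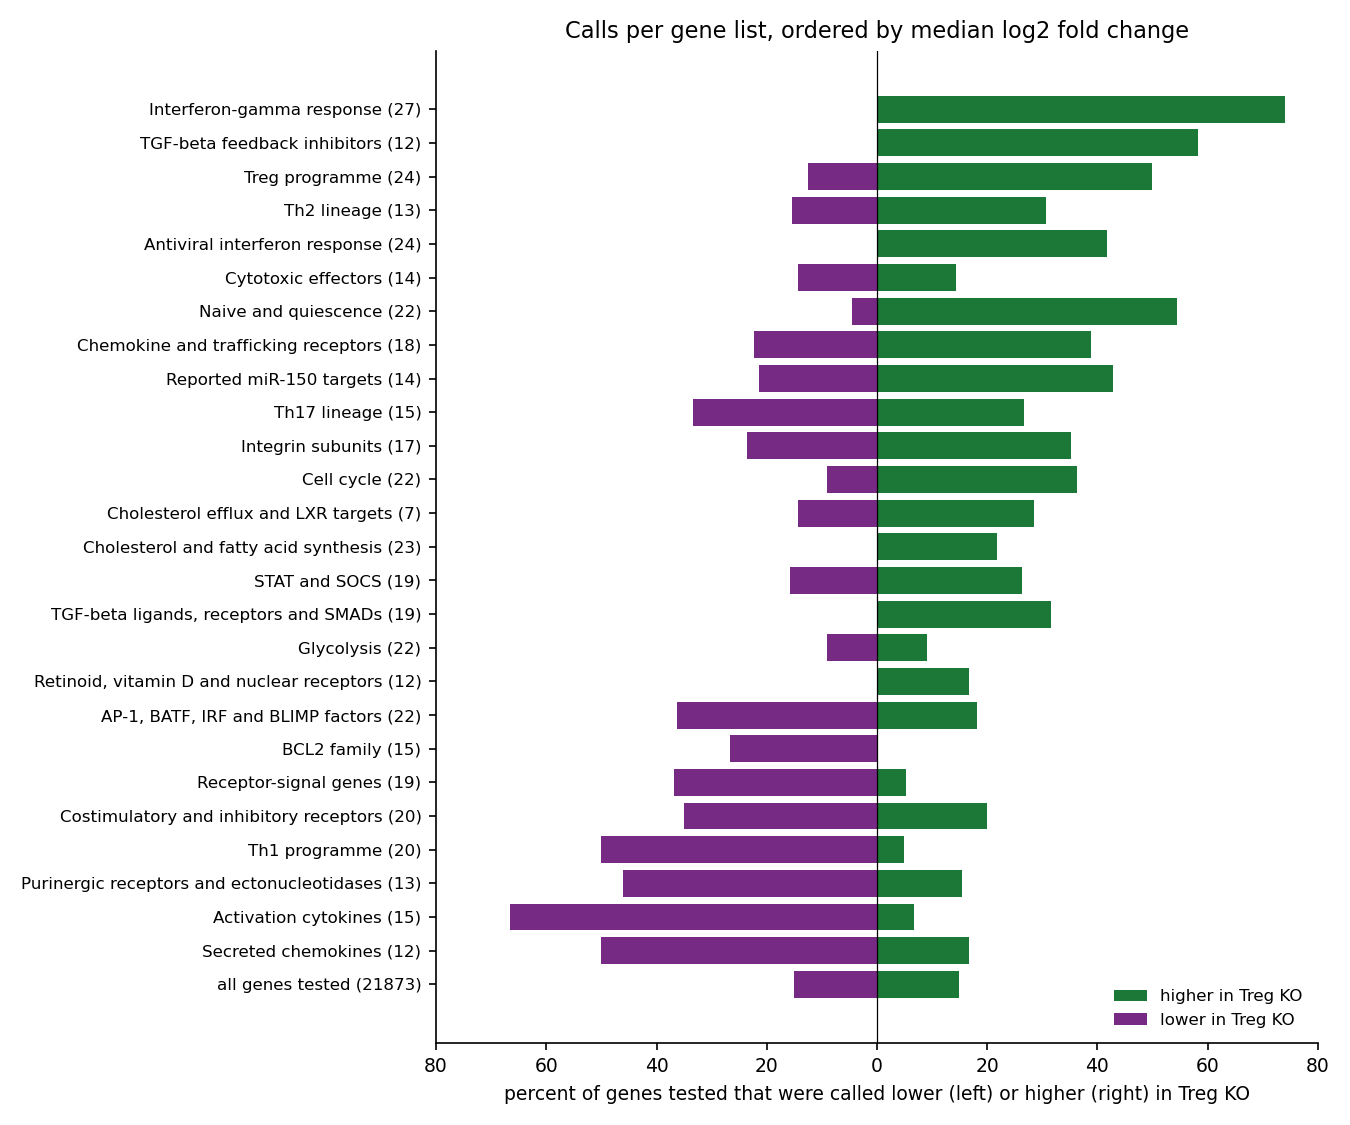
Percent of the genes tested in each list that rose (right, green) or fell (left, purple) in Treg KO, with the number tested in brackets, ordered by median log2 fold change; the last bar is all genes tested. In the interferon-gamma response list 20 of 27 rose and 0 fell, and among the activation cytokines 1 of 15 rose and 10 fell, against 14.96% and 15.02% of all genes.

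Of the 15 genes that rose most and the 15 that fell most, among named genes with a mean of at least 2 log2 CPM and no overlap, most are on none of the lists. Tead1, a factor of the Hippo pathway (chr7:112679318-112906807), stood at 41.8, 12.7, 44.4, 64.4 and 54.8 CPM in Treg KO, against 0.209, 0.101, 0.316, 0.0279 and 0.0741 CPM in Th1 KO (log2 fold change 8.24 ± 1.16, adjusted p = 1.09e-06). Npas2, a partner of the circadian clock (chr1:39193731-39363236), stood at 26.8, 21.5, 26, 44.2 and 29.2 CPM in Treg KO, against 0.978, 0.879, 1.62, 0.893 and 0.931 CPM in Th1 KO (log2 fold change 4.80 ± 0.36, adjusted p = 4.60e-12). The 5 Treg KO libraries were far above Th1 KO for both. Lcn10, a lipocalin, had 4200 counts in Treg KO and 3 in Th1 KO, a ratio of 1562.5 with a 95% counting interval of 534.3 to 7579.6. Drc1, a part of the motile cilium, the muscle protease gene Capn3, the neuron navigator Nav1 and the secreted Angptl2 rose, with log2 fold changes of 7.94, 5.34, 5.29 and 4.79. Others of the 15 that rose most were Apol9b, Ncmap and Stxbp6, with log2 fold changes of 6.65 ± 1.13, 5.17 ± 0.72 and 5.14 ± 0.68, and Apol9b shares sequence with the neighbouring Apol9a.

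In the other direction Serpinb5, or maspin, a serpin of epithelia (chr1:106861173-106883348), had 8 counts in all Treg KO libraries together and stood at 44.4, 149.4, 18.5, 12.8 and 28.9 CPM in Th1 KO (log2 fold change -11.48 ± 1.47, adjusted p = 2.40e-07). Timp1, an inhibitor of matrix metalloproteinases (chrX:20870166-20874735), stood at 0.147, 2.49, 0.274, 0.17 and 0.0969 CPM in Treg KO, against 165.98, 199.4, 166.8, 141.97 and 129.5 CPM in Th1 KO (log2 fold change -7.96 ± 1.16, adjusted p = 2.20e-06). Cxcr1, a receptor for neutrophil chemokines (chr1:74191785-74194631), stood at 0.0905, 0.107, 0.0489, 0.0364 and 0.0388 CPM in Treg KO, against 16.1, 36.6, 12.1, 13.9 and 16.2 CPM in Th1 KO (log2 fold change -8.17 ± 0.85, adjusted p = 4.35e-09). Selp, or P-selectin (chr1:164115264-164150026), stood at 0.385, 1.22, 0.283, 0.267 and 0.116 CPM in Treg KO, against 92.6, 179.2, 63.7, 71.7 and 70.9 CPM in Th1 KO (log2 fold change -7.71 ± 1.26, adjusted p = 1.26e-05). Treg KO 2 held the highest of the Treg KO values for each of these 4 genes, and none came near Th1 KO. The RNA-binding Msi1, the factor Sox5, malic enzyme Me1 and the kinase gene Mylk fell by 9.91, 7.04, 6.75 and 6.03 on the log2 scale, with adjusted p of 2.53e-06, 5.19e-07, 1.25e-05 and 2.04e-05. Ermn, Atp6v0d2, Nkain1, Sema3b and Trim66 fell, with log2 fold changes of -7.05, -6.89, -6.19, -5.75 and -5.70, and Il3 and Il23r complete the 15 that fell most.

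Most of the culture effect was shared with wild type cells. Across 21873 genes the log2 fold changes of KO and of WT, which share no library, correlated with a Pearson r of 0.733, and those of KO and KI with r of 0.776; genes are not independent replicates. Of the 6559 genes called in KO and the 6737 called in WT, 4550 were called in both with the same sign, 69.4% of the first list and 67.5% of the second, and 5 with opposite sign. With KI, where 7182 were called, 5162 were shared with the same sign, 78.7% of the KO list and 71.9% of the KI list. Foxp3 had a log2 fold change of 7.79 ± 0.69 (adjusted p = 1.83e-10) in WT and 8.77 ± 0.72 (adjusted p = 2.61e-11) in KI, and Tgfbr1 of 4.05 ± 0.39 (adjusted p = 1.03e-09) in WT and 3.65 ± 0.38 (adjusted p = 4.03e-09) in KI, beside 3.22 ± 0.37 (adjusted p = 3.87e-08) in KO. The difference between the KO and WT effects passed for 0 genes by edgeR, with 1402 at an unadjusted p under 0.05 and a lowest adjusted p of 0.0787, and for 31 by DESeq2. The difference between the KO and KI effects passed for 0 genes by edgeR, with 742 at an unadjusted p under 0.05, and for 3 by DESeq2.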

How the data were processed

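RNA was prepared with a stranded poly(A) kit and sequenced as paired ends, per the labels. The authors deposited whole-number counts per gene with 2 lane columns per library; the columns' names record trimming and STAR alignment before counting, per the file headers. Which program counted, with which strand setting and annotation, was not given in the sources used here, so overlapping and antisense genes are uncertain. Per the submitters' processing notes a human genome build was used, while the gene IDs are mouse; positions are those of GENCODE M21 by gene ID. Lane counts were summed, which correlated at 0.9975 or more.

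The 44 libraries, in 9 groups, were fitted together with edgeR 4.0.16 in R 4.3.3 (default filter on low counts by group, TMM factors, quasi-likelihood test, Benjamini-Hochberg adjustment over 21873 genes), with 1 term per group. Errors of fold changes are SE. DESeq2 1.42.0, its size factors, no filter, a Cd8a term, the 10 libraries alone, a replicate block and leaving out libraries were the alternatives. On data simulated from these libraries the fit was tested before use. Same-numbered Treg KO and Th1 KO libraries deviated together from their group means (correlations 0.14 to 0.392 over 10538 genes). The mean between other numbers, -0.064, is no separate yardstick, since deviations from a group mean cancel out over its libraries. The best match was the same number for 5 of 5 Treg libraries in KO, 3 of 5 in WT and 4 of 5 in KI. The numbers are read as pairs on this evidence from the data alone, but the main fit has no term for pairs. Blocked values are given where they change a call.

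Genes are named as follows: Foxp3, Tbx21, Ifng, Gata3, Myb and Mir150; the 15 largest changes each way; and up to 5 called members of each list by size, with best-known members; some genes these rules name are not reported here. Bhlhe40, Cbl, Cd200, Gpr183, Itgb7, Jak1, Myc, Pdcd1, Satb1, Slc29a1, Smad4, Stat5a, Tcf7, Zeb1 and the genes with printed promoters were chosen after their values were seen. The comparison, the lists and their members were chosen with earlier results of these data known. A fold against a group at 0 counts uses 3 counts over the group as a floor. Intervals and floors cover counting error only.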

Additional observations from a re-analysis of the deposited data

Results flagged for a closer look

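Among 54 genes with values given per library, each of the 2 groups of 5 was searched for a highest or lowest library set apart by more than 0.71 of the group's range (Dixon's test). Chance sets apart about 1 in 20 groups where values follow a normal distribution, which was not tested for these CPM. The search found 29 such values, and 26 of the 29 were in library 2 of either culture. Genes share libraries, so these are not 29 separate events. The part of other cells in them was not tested, and the sum of CD8 T and NK cell markers in Treg KO 2 is given above.

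Treg KO 2 stood below the rest of its group for Foxp3, at 77.4 CPM against 375.8 to 431.2 CPM. It stood above the rest for genes of effector cells. Its value was 157.2 CPM for Ifng, 1657.1 CPM for Gzmb, 18.8 CPM for Prf1, 47.3 CPM for Tbx21 and 207.5 CPM for Stat4. It was likewise highest in the cytokine genes Il10, Il21 and Il3, at 3.21, 7.24 and 1.06 CPM, and in Il23r, at 0.632 CPM. The factors Batf3, Gata3 and Satb1 stood at 8.39, 67.4 and 331.1 CPM there, and Cd8a at 73.1 CPM. Timp1, Selp and Serpinb5 stood at 2.49, 1.22 and 0.0778 CPM, still far below Th1 KO.

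Th1 KO 2 stood above its group for Gzmb at 2404.6 CPM, Prf1 at 83.8 CPM, Il10 at 15.7 CPM, Irf1 at 137.1 CPM and Ltb at 48.2 CPM. It was also highest in Cxcr1, Selp and Serpinb5, at 36.6, 179.2 and 149.4 CPM, and lowest in Cd40lg, at 89.7 CPM against 179.3 to 207.6 CPM. In the other libraries, Th1 KO 3 was set apart for Itgae and Npas2, at 3.54 and 1.62 CPM, and Treg KO 4 for Pmepa1, at 84.5 CPM.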

How the results depend on the processing

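The 6559 genes called between Treg KO and Th1 KO ranged from 5459 to 7043 when 1 library was left out, and from 5815 to 8027 over the other alternatives, the highest with library numbers as a block. Of the genes with a fold change or p-value in the text, 11 were not called and none changed sign in any alternative. Of the called genes 5 lost the call in at least 1 alternative, and 6 of the 11 passed in at least 1. The block ended 2 calls and made 5, each given beside its gene, and changed no other call of these genes. DESeq2 ended none.

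For the KO minus WT difference, called for 0 genes, DESeq2 called 31 and the fit without the libraries numbered KO 2, WT 4 and KI 3 called 6, with Gbp2 and Gbp7 among them, and leaving out 1 library gave 0 to 1. For the KO minus KI difference, called for 0 genes, DESeq2 called 3 and the block 1, and leaving out 1 library gave 0 to 1. The cause was not tested. At 76796218 counts or more per library, depth limits genes at 0 in some libraries, such as Hlx and Ccr3 in Treg KO. The main limits are the spread of library 2 in both cultures, the unstated meaning of the library numbers, and the few genes called when fold changes were compared between genotypes.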

Other observations

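More genes of purinergic signalling fell than rose. Of 13 tested 2 rose and 6 fell in Treg KO, against 14.96% and 15.02% of all genes, with a median log2 fold change of -1.27. By comparison, 4 were higher and 6 lower with library numbers blocked. Nt5e, which makes adenosine, and the transporter Slc29a1, which carries it, rose, the second by 0.88 ± 0.23 on the log2 scale (adjusted p = 0.0035). The adenosine receptor genes Adora2a and Adora2b fell by 2.32 and 2.97, at 8.41 to 12.3 and 0.313 to 2.87 CPM in Treg KO, against 34.1 to 66.4 and 7.09 to 9.01 CPM in Th1 KO, with adjusted p of 8.15e-07 and 1.20e-04. Among 7 genes of cholesterol efflux and LXR targets 2 rose and 1 fell, with a median of 0.2. When single libraries were left out, 1 was higher without Treg KO 1, 3 or 5 or Th1 KO 1, 2, 3, 4 or 5. The efflux pumps lay on opposite sides: Abca1 stood at 17.2, 4.52, 11.3, 6.1 and 13.6 CPM in Treg KO, against 89.5, 71.8, 98, 105.3 and 88 CPM in Th1 KO (log2 fold change -3.10 ± 0.56, adjusted p = 5.58e-05). Abcg1 stood at 83.4, 12.1, 85, 63.4 and 93.9 CPM in Treg KO, against 11.9, 15.8, 14.6, 15.6 and 12.3 CPM in Th1 KO (log2 fold change 2.27 ± 0.43, adjusted p = 1.15e-04), and Treg KO 2 lay within the range of Th1 KO.

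Of 23 genes of cholesterol and fatty acid synthesis 5 rose and 0 fell, with a median of 0.18. In other fits, 6 were higher and 1 lower with library numbers blocked and 2 were higher and 1 lower without both libraries numbered 2 (median 0.08). Leaving out 1 library, 2 were higher without Treg KO 1, 2, 3 or 5 or Th1 KO 1, 2 or 4 and 3 were higher without Treg KO 4 or Th1 KO 3 or 5. Sc5d, a late enzyme of cholesterol synthesis, stood at 133.99 to 148.2 CPM in Treg KO and 74.2 to 87 CPM in Th1 KO (log2 fold change 0.77 ± 0.11, adjusted p = 2.26e-06). Of 22 glycolysis genes 2 rose and 2 fell, with a median of -0.11. Of these genes, 3 were higher and 4 lower with library numbers blocked. With 1 library left out, 1 was higher without Treg KO 1. Hk2, the induced hexokinase, fell by 1.82, while Pdk1, which keeps pyruvate from the mitochondria, rose by 0.67 ± 0.15, with adjusted p of 0.00206 and 5.65e-04. Of 12 nuclear receptors 2 rose and 0 fell, with a median of -0.15, and the glucocorticoid receptor gene Nr3c1 rose by 0.67 ± 0.12 (adjusted p = 4.67e-05). With 1 library left out, 1 was lower without Treg KO 4. Of 15 BCL2 family genes 0 rose and 4 fell, with a median of -0.38. By comparison, 2 were higher and 5 lower with library numbers blocked. When single libraries were left out, 1 was higher without Treg KO 4. The survival gene Bcl2l1 fell by 1.30 and the death genes Bax and Bid by 0.88 and 0.70, with adjusted p of 1.44e-05, 0.00206 and 4.51e-04.

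Of the marker lists of other cells, 1 of 10 B cell genes rose and 0 fell. With library numbers blocked 2 were higher and 3 lower. Of 8 CD8 T and NK cell genes 0 rose and 1 fell. In other fits, 3 were higher and 3 lower with library numbers blocked and 0 were higher and 2 lower without both libraries numbered 2. Of 6 erythroid genes 0 rose and 0 fell. Of these genes, 0 were higher and 1 lower with library numbers blocked and 0 were higher and 1 lower without both libraries numbered 2. With 1 library left out, 1 was lower without Treg KO 2. Of 8 T cell genes 5 rose and 0 fell, and of 9 mitochondrial transcripts 0 rose and 0 fell. With library numbers blocked 1 mitochondrial transcript was higher and 0 were lower. The B cell gene that rose was Ighm, at 218.01 to 541.04 CPM in Treg KO and 37.4 to 241.3 CPM in Th1 KO (log2 fold change 2.01 ± 0.51, adjusted p = 0.00251). The CD8 and NK gene that fell was Crtam, an adhesion molecule also found on cytotoxic CD4 T cells (log2 fold change -3.11 ± 0.64, adjusted p = 2.48e-04).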
